A study of Arabidopsis thaliana with 18 samples.

Results

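The transcripts described here were strongly lowered by antimycin A in wild-type Arabidopsis thaliana seedlings and in both rao1 mutants, from similar starting levels. They were selected on the deposited intensities themselves, as probe sets whose mean level under mock was at least 64 in each of the 3 genotypes and differed between each mutant and wild type by at most 1 on the log2 scale. The mean level under antimycin A had to lie at least 4-fold below mock in each genotype, a log2 difference of -2 or lower. Of the 22746 probe sets that measure plant transcripts, 11399 met the mock limits and 102 met every limit, and 98 remained once 10 genes were left out by name, of which 4 (AT5G41900, EXPA9, GH9C2 and SWEET1) had met the limits. The mirrored rule, for probe sets at least 4-fold higher in all 3 genotypes, found 297. Of the 98 members, 44 carry 1 gene name in the platform annotation and 54 carry none, so those 54 are described by counts, except where a result turns on 1 of them.

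The 18 arrays form groups of 3: rao1-1 seedlings under antimycin A, rao1-1 under mock, rao1-2 under antimycin A, rao1-2 under mock, wild type (labelled Col:LUC) under antimycin A and wild type under mock. The rao1 mutants are named as regulators of alternative oxidase 1a, and the title of the series concerns the cyclin-dependent kinase CDKE;1. Seedlings 14 days old, on medium with sucrose, received a spray of 50 µM antimycin A, or of water as the mock, and whole green tissue was taken after 3 h. The labels give neither the lesion in each allele nor the promoter of the LUC reporter, and CDKE;1 itself has no named probe set here.

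Antimycin A blocks electron transfer through complex III of the mitochondrial respiratory chain. The block sets off mitochondrial retrograde signalling, in which the state of the organelle alters transcription in the nucleus. CDKE;1 belongs to the kinase module of Mediator, the complex that links transcription factors to RNA polymerase II. Genes for growth, the cell wall and the surface of the plant are commonly lowered when stress genes are raised, and a transcript's level after a few hours reflects both its synthesis and its decay.

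Each of the 18 Affymetrix ATH1 arrays reads a transcript through a probe set of short oligonucleotides, and the number of arrays limits the precision. Array medians lay between 78.0 and 92.1 intensity units, and no 2 arrays were duplicates of each other. The intensities of all arrays pooled have a dim and a bright mode, and the trough that parts them, at 17.8, served as the background limit. Where every array of a group read below that limit, the level is known only as a bound, so folds against it are written as "at least". The tissue label was set against marker genes: the 14 chloroplast and photosynthesis genes measured summed to between 120761 and 139845 under antimycin A and between 134810 and 170836 under mock, over all genotypes. Of these 14 genes 4 fell in rao1-1, 5 in rao1-2 and 9 in wild type, and 1 rose in each genotype. Over all probe sets 24.8%, 27.3% and 28.8% were called lower in those genotypes, and 15.8%, 15.6% and 14.4% higher. The seed oleosin OLEO3 lay below the background limit on every array. Of 2 root markers, AGL42 was also below it on every array, while PYK10, a myrosinase of roots and hypocotyls, ranged from 315 to 1279 under antimycin A and from 54.6 to 1466 under mock. The part of these markers in the results below was not tested. Residual ribosomal RNA, read by the 25S control, was higher under antimycin A than under mock by 1.24 in rao1-1, 1.05 in rao1-2 and 0.84 in wild type on the log2 scale, and its part in the results was not tested either.

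The members fell to similar depths in the 3 genotypes. Their median log2 response, antimycin A minus mock, was -2.65 in rao1-1 (range -4.28 to -2.01), -2.63 in rao1-2 (-4.93 to -2.0) and -2.61 in wild type (-4.08 to -2.02). The median share of the mock level left was 15.9% in rao1-1, 16.2% in rao1-2 and 16.3% in wild type. Over all probe sets tested the median responses were 0.04, 0.03 and -0.00, and over those within the mock limits they were -0.25, -0.29 and -0.32. These differences are what the rule selected and carry no test here. In whole tissue, fewer cells of a type and less RNA per cell cannot be told apart.

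By limma, 97 members were called lower in rao1-1, where 24.8% of all probe sets were called lower, 98 in rao1-2 (27.3% of all) and 98 in wild type (28.8% of all), at an adjusted p under 0.05. All 3 treated arrays lay below all 3 mock arrays for 98 members in rao1-1, 98 in rao1-2 and 97 in wild type. Over all probe sets the share with such a separation was 30.4% in rao1-1, 31.5% in rao1-2 and 32.9% in wild type. The exceptions were both unnamed probe sets. One was not called in rao1-1 (9.87, 34.5 and 72.5 under antimycin A, against 164, 179 and 106 under mock). The other overlapped in wild type (104, 21.5 and 23.4 under antimycin A, against 239, 230.2 and 89.1 under mock), where treated replicate 1 stood above the dimmest mock array. The contrast chose the members, so nothing is read from these counts. In each genotype 6 members were below the background limit on all 3 treated arrays, 14 were so in at least 1 genotype, and AT5G03230 alone was so in all 3.

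**Figure D1:**
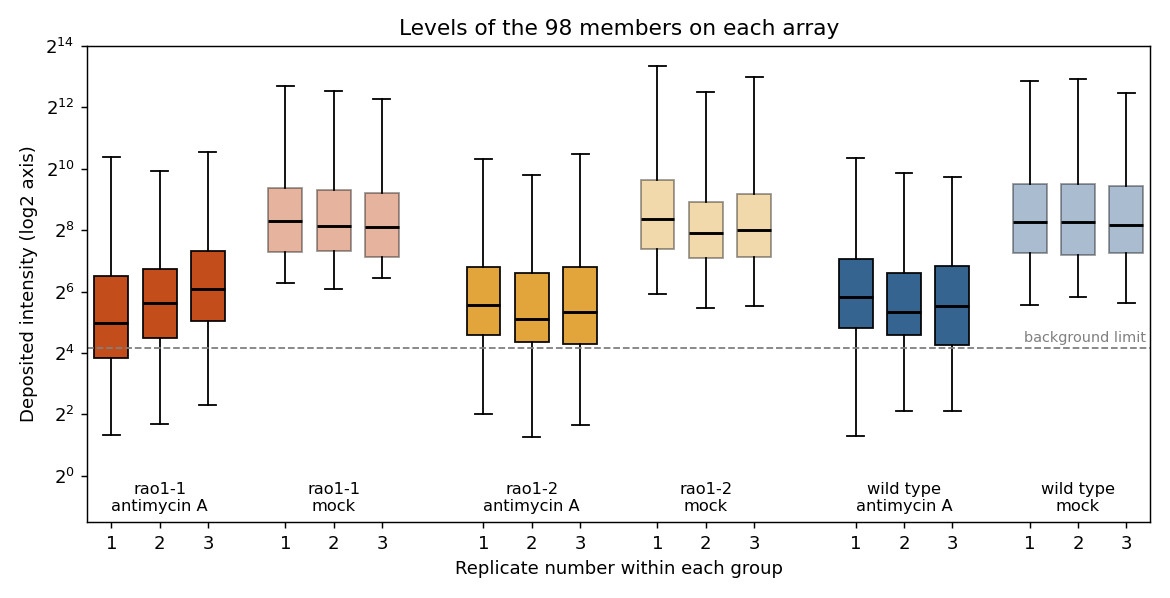
Intensity of the 98 members on each of the 18 arrays, on a log2 axis. Boxes span the quartiles with the median as a line, whiskers reach the lowest and highest member, solid colours mark antimycin A and pale colours mock, and the dashed line is the background limit of 17.8. The treated medians lie between 31.1 and 68.5 and the mock medians between 240 and 333.

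The treated arrays of rao1-1 were the least alike in these transcripts. The median member had an intensity of 31.1, 49.7 and 68.5 on the 3 rao1-1 arrays under antimycin A, against 312, 281 and 275 under mock. In rao1-2 it was 47.6, 34.1 and 40.1 under antimycin A and 333, 240 and 259 under mock. In wild type it was 56.7, 40.8 and 45.9 under antimycin A and 306, 306 and 286 under mock. No treated array came near a mock array in its median. On rao1-1 replicate 1 under antimycin A, 80 of the 98 members lay below their own group mean, by a median of -0.46 on the log2 scale, while on replicate 3 only 15 did and the median was 0.54. The 297 probe sets that antimycin A raised at least 4-fold moved little on those 2 arrays, with median deviations of 0.10 and -0.07. The median SD between replicates of a member was 0.65 in rao1-1, 0.46 in rao1-2 and 0.49 in wild type under antimycin A on the log2 scale, against 0.17, 0.35 and 0.27 under mock. For the other probe sets within the mock limits it was 0.18, 0.13 and 0.15 under antimycin A and 0.11, 0.17 and 0.15 under mock. On treated arrays the median member stood between 4.96 and 6.10 on the log2 scale, and the median of those other probe sets between 8.56 and 8.63. The SDs were not matched for level, and the part of dim readings in their difference was not tested.

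Of the 44 named members, 37 were assigned a role from textbook knowledge once the members were known. A set of 6 encodes GDSL-type lipases or esterases, enzymes that cleave ester bonds and of which several plant members are secreted to the cell surface. Another 7 encode proteins of the cell wall or the secretory path, 7 receptors and signalling proteins, 6 proteins of transcription or nucleic acid metabolism, 2 transporters and 9 other enzymes. For the remaining 7 no role is given. The share of each role among all probe sets is not given here, so nothing is read from these counts. The median response of the 54 unnamed members was -2.65 in rao1-1, -2.54 in rao1-2 and -2.53 in wild type.

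**Figure D2:**
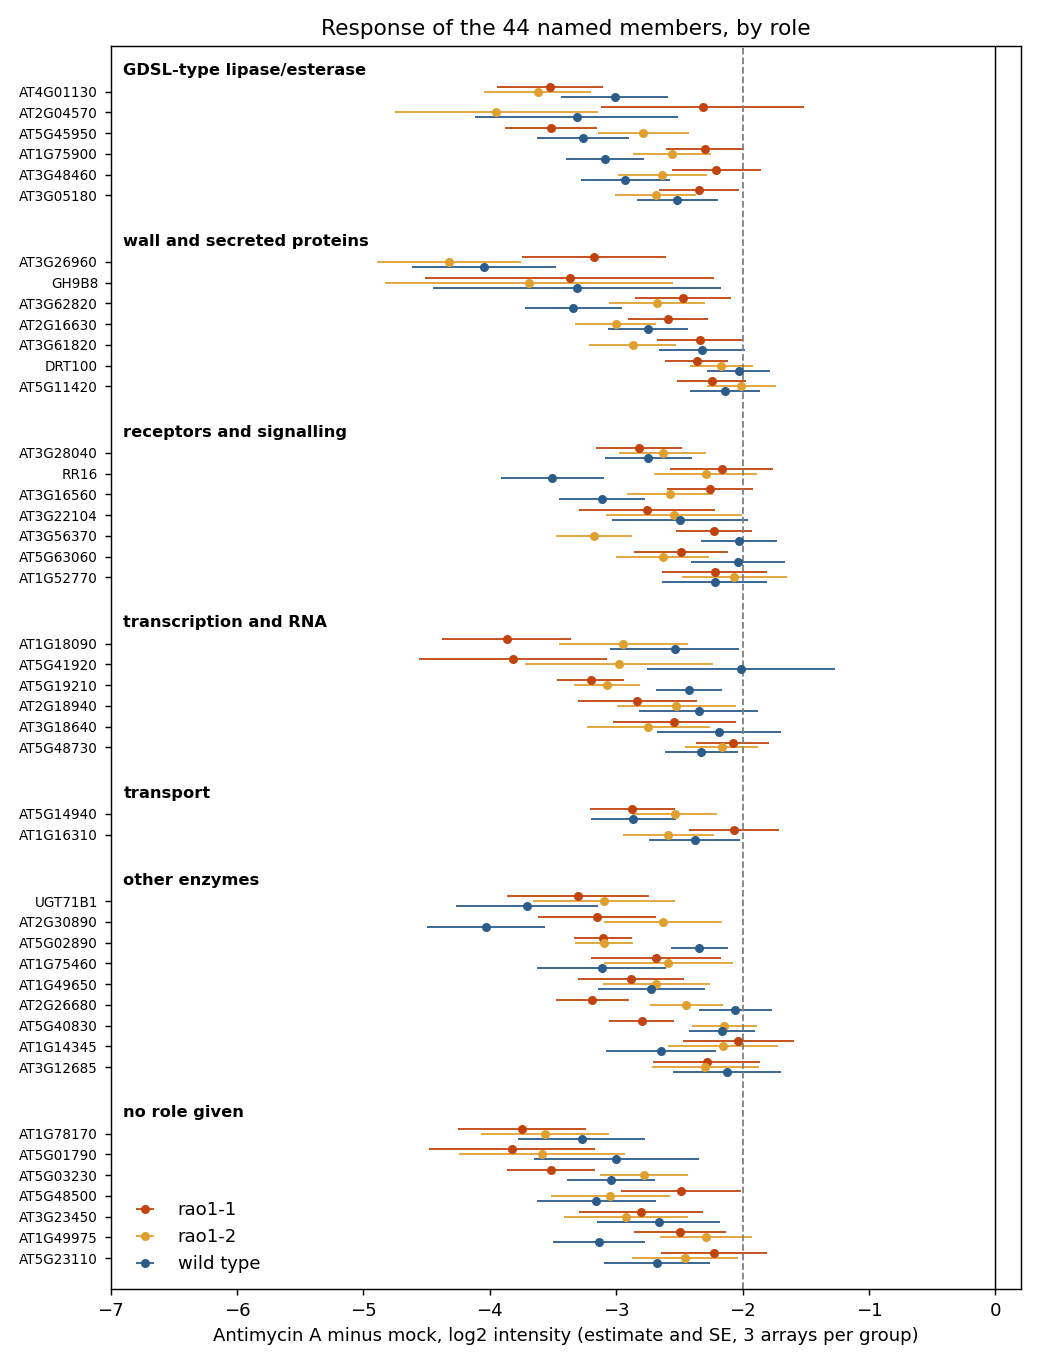
Log2 response (antimycin A minus mock) of each of the 44 named members, by role, with 3 points per gene for rao1-1, rao1-2 and wild type. Points are estimates over 3 arrays per group, bars are limma's SE, and the dashed line is the limit of -2 that chose the members. The GDSL-type enzymes span -3.95 to -2.21.

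The GDSL-type enzymes had median responses of -2.33 in rao1-1, -2.74 in rao1-2 and -3.05 in wild type. AT4G01130 stood at 16.9, 11.9 and 27.7 on the treated rao1-1 arrays against 193, 190 and 233 under mock, a response of -3.52 ± 0.42 (limma's SE, as for each response below). In rao1-2 it stood at 24.5, 10.8 and 10.3 under antimycin A against 270, 109 and 172 under mock (-3.62 ± 0.42). In wild type it stood at 65.8, 36.7 and 32.1 against 441, 373 and 247 (-3.01 ± 0.42). Its groups did not overlap, and both treatments of wild type sat above those of the mutants in their means. AT5G45950 had treated values of 58.4, 37.2 and 55.2 in rao1-1, 76.5, 80.5 and 69.7 in rao1-2 and 132, 58.4 and 37.8 in wild type. Its mock values lay between 358 and 793 on all 9 arrays, and its responses were -3.52 ± 0.36, -2.78 ± 0.36 and -3.26 ± 0.36. This gene kept measurable signal after treatment in every genotype. AT2G04570 was less even: it read 5.03, 35.1 and 33.0 on treated rao1-2 arrays and 48.8, 53.9 and 5.19 on treated wild-type arrays, so that 1 dim array in each group pulled the response to -3.95 ± 0.80 and -3.31 ± 0.80. In rao1-1, with 49.1, 49.9 and 73.0, the response was -2.32 ± 0.80. AT1G75900, AT3G48460 and AT3G05180, the other 3 of the family, had responses between -3.09 and -2.21 in the 3 genotypes.

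The wall and secreted proteins had medians of -2.47 in rao1-1, -2.87 in rao1-2 and -2.75 in wild type. AT3G26960, which encodes a pollen Ole e 1/extensin-type protein, had the most negative mean response of all named members, -3.85. It read 25.7, 49.5 and 68.1 under antimycin A in rao1-1 against 393, 400 and 405 under mock. In rao1-2 it read 28.4, 22.9 and 7.20 against 386, 282 and 347, and in wild type 24.2, 21.2 and 4.99 against 247, 226 and 207. Every treated array was thus several-fold below the dimmest mock array of its genotype, and the responses were -3.17 ± 0.57, -4.33 ± 0.57 and -4.05 ± 0.57. AT2G16630, of the same protein type, had responses of -2.59, -3.0 and -2.75, each ± 0.32.

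GH9B8 is a family 9 glycosyl hydrolase, a family whose enzymes act on cellulose and related wall glucans. Its treated values were the most scattered of the wall group: 2.53, 33.5 and 20.1 in rao1-1, 35.9, 2.44 and 9.15 in rao1-2 and 2.43, 44.8 and 11.2 in wild type. Under mock it read 118, 177 and 89.9 in rao1-1, 59.9, 156 and 186 in rao1-2 and 78.0, 125 and 122 in wild type. The groups did not overlap, but the SE of each response was 1.14, with responses of -3.37, -3.69 and -3.31. Of 15 named GH9 genes measured, a family gathered after the members were known, 4 fell in each genotype by limma and none rose. Over all probe sets 24.8% were called lower in rao1-1, 27.3% in rao1-2 and 28.8% in wild type. The 4 were GH9B7, GH9B13, GH9C2 and GH9B8. The other 11 had means below the background limit in every group, so a fall in them could not be measured. The medians of the family, 0.04, 0.06 and -0.01, rest on those dim genes. Nothing is therefore read from the counts or medians of the family beside those over all probe sets.

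The remaining wall genes had higher mock intensities. AT5G11420, a DUF642 wall protein, read 360, 414 and 702 in treated rao1-1 against 2339, 2103 and 2271 under mock. In treated rao1-2 it read 526, 284 and 379 against 1995, 1324 and 1397, and in treated wild type 492, 342 and 360 against 2240.4, 1387 and 1659.6. Its responses, -2.25, -2.01 and -2.14 (each ± 0.28), place it just inside the limit. AT3G61820 (an aspartyl protease), DRT100 (a leucine-rich repeat protein) and AT3G62820 (a pectin methylesterase or invertase inhibitor) had responses between -3.34 and -2.03. For these genes the treated level was above the background limit on every array.

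The receptors and signalling proteins had medians of -2.26 in rao1-1, -2.57 in rao1-2 and -2.49 in wild type. AT3G28040, a leucine-rich repeat receptor-like kinase, read 83.2, 106 and 203 in treated rao1-1, 140, 119 and 141 in treated rao1-2 and 199, 72.6 and 157 in treated wild type, against mock values between 709 and 1047 on all 9 arrays. Its 3 responses, -2.82, -2.63 and -2.74 (each ± 0.34), differed by at most 0.19. AT3G56370, a kinase of the same class, responded by -2.22, -3.18 and -2.03 (each ± 0.30). AT3G16560, a type 2C protein phosphatase, responded by -2.26, -2.57 and -3.11 (each ± 0.34). AT3G22104 and AT1G52770, of the NPH3 family known from phototropism signalling, had responses between -2.75 and -2.06, and the Sec14-like AT5G63060 had responses between -2.63 and -2.04.

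RR16 (AT2G40670) is a type-A response regulator, one of the genes that cytokinin induces and that dampen cytokinin signalling. It read 21.1, 44 and 62.3 under antimycin A in rao1-1 against 187, 155 and 181 under mock. In rao1-2 it read 18.8, 9.31 and 19.5 against 121, 44.4 and 74.7, and in wild type 13.6, 9.52 and 12.4 against 163, 124 and 116. The treated wild-type arrays were all below the background limit, so RR16 was at least 7.49-fold lower there, while the responses in the mutants were -2.17 ± 0.41 and -2.29 ± 0.41. ARR15 (AT1G74890) was the only other named type-A regulator measured. ARR15 fell in rao1-1 (-1.31 ± 0.48, limma adjusted p = 0.0433) and in wild type (-2.45 ± 0.48, adjusted p = 0.000882), where most treated readings were below the background limit, while in rao1-2 it read 8.55, 6.78 and 18 under antimycin A and 18.2, 11.9 and 20.6 under mock, around the background limit in both, so a fall there could not be measured.

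Proteins of transcription and nucleic acid metabolism had medians of -3.02 in rao1-1, -2.84 in rao1-2 and -2.34 in wild type. AT5G41920 encodes a GRAS transcription factor of the SCARECROW-like type. It read 3.21, 6.97 and 21.7 in treated rao1-1 against 117, 113 and 103 under mock. In treated rao1-2 it read 27.8, 30.8 and 3.16 against 135, 112 and 87.4, and in treated wild type 62.4, 43.5 and 43.5 against 237, 196 and 168. Its responses were -3.82, -2.98 and -2.02 (each ± 0.74), and the wild-type value lay just inside the limit. The spread between genotypes rests on 3 treated readings far below the background limit. With readings below the limit raised to it, the responses were -2.55, -2.15 and -2.02. SCL21, of the same family, fell by less, with responses of -0.39, -0.33 and -0.40 and adjusted p-values of 0.00485, 0.0128 and 0.00370. In the gene order of assembly TAIR10.1, AT5G41920 lies 3 genes from AT5G41900, 1 of the left-out genes that met the limits.

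AT1G18090, of the 5'-3' exonuclease family, was below the background limit on all treated rao1-1 arrays (16.5, 3.24 and 5.16, against 111, 83.0 and 93.1 under mock) and so at least 5.36-fold lower. It responded by -2.94 ± 0.51 in rao1-2 and -2.54 ± 0.51 in wild type. AT5G19210, a DEAD-box RNA helicase, was below the limit on the treated arrays of both mutants and at least 5.44-fold lower in rao1-1 and 4.6-fold in rao1-2. In wild type it read 17.9, 16.4 and 17.9 under antimycin A, at the limit itself, against 112, 123 and 59.1 under mock. AT2G18940 and AT5G48730 encode pentatricopeptide repeat proteins, which bind organelle RNA, and had responses between -2.83 and -2.08. The CCCH zinc finger gene AT3G18640 had responses between -2.75 and -2.19.

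A list of 17 other genes with pentatricopeptide repeat or organelle-function names, OTP, CRR and PPR, was set beside the pair above. It also holds NdhS and NdhL, subunits of the chloroplast NDH complex that carry CRR names. In rao1-1 8 of the 17 fell and none rose, in rao1-2 7 fell and in wild type 11 fell. Over all probe sets 24.8%, 27.3% and 28.8% were called lower in those genotypes. OTP43, OTP80, OTP85 and CRR28 were called lower in wild type alone. Their wild-type mock means of 16.4, 6.41, 18.9 and 20.8 were below or near the background limit, so no size is given. The medians of the 17 genes were -0.66, -0.85 and -0.86, against 0.04, 0.03 and -0.00 over all probe sets. CRR21 had the most negative wild-type response, -2.94 (adjusted p = 0.000353), with -1.89 (0.00853) in rao1-1 and -2.45 (0.00133) in rao1-2, and stayed outside the members because its rao1-1 value missed the limit of -2.

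The transporters were AT5G14940, of the nitrate and peptide transporter family, with responses of -2.87, -2.54 and -2.87 (each ± 0.34), and AT1G16310, a cation efflux protein, with -2.07, -2.59 and -2.38 (each ± 0.36). The other enzymes had medians of -2.88 in rao1-1, -2.59 in rao1-2 and -2.65 in wild type. UGT71B1, a glycosyltransferase that joins sugars to small molecules, read 5.32, 32.2 and 35.2 in treated rao1-1 against 183, 202 and 156 under mock. It read 23.9, 19.4 and 14.4 against 165, 146 and 175 in rao1-2, and was below the background limit on all treated wild-type arrays (16.2, 6.76 and 15.8, against 117, 164 and 198), at least 8.81-fold lower. Of 9 named UGT71 genes, also gathered after the members were known, UGT71B1 was the only one that fell. Among the others only UGT71C4 and UGT71C5 had mock means above the background limit, so a fall in the rest could not be measured. UGT71C5 rose in all 3 genotypes by 0.86, 0.75 and 0.99, and UGT71B6 was called higher in all 3, with mock means below the background limit, so no fold is given.

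AT2G30890, which encodes a cytochrome b561-type protein, had treated values of 3.82, 18.4 and 16.0 in rao1-1, 22.2, 20.1 and 9.36 in rao1-2 and 4.94, 4.31 and 5.94 in wild type. Its mock values lay between 72.7 and 116 on all 9 arrays. The gene was at least 4.63-fold lower in wild type, and the responses in the mutants were -3.15 ± 0.47 and -2.63 ± 0.47. AT5G02890, of the HXXXD-type acyltransferases, read 49.0, 68.3 and 54.5 in treated rao1-1, 51.3, 72.8 and 39.2 in treated rao1-2 and 75, 75.5 and 65.2 in treated wild type. Against mock values of 573, 500 and 406, of 567, 475 and 340 and of 396, 388 and 313, its responses were -3.11, -3.10 and -2.34 (each ± 0.23). AT1G49650 (a carboxylesterase), AT1G75460 (a LON-domain protein), AT2G26680 (an FkbM-type methyltransferase) and AT3G12685 (an acid phosphatase-related protein) had responses between -3.19 and -2.06.

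Among members with no role given, AT1G78170 responded by -3.75, -3.57 and -3.27 (each ± 0.51) and AT5G01790 by -3.82, -3.59 and -3.0 (each ± 0.65), in the order rao1-1, rao1-2 and wild type. AT5G03230, with a DUF584 domain, was at least 6.34-fold lower in rao1-1, 3.63-fold in rao1-2 and 6.14-fold in wild type. Its mock mean in rao1-2, 64.4, was the closest of the named members to the mock limit. AT3G23450 had responses of -2.81, -2.92 and -2.66 (each ± 0.49). The 4 named members not described singly had responses between -3.16 and -2.03.

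Other genes of growth and of the plant surface were looked up by their names, and none of the families below holds a member. The rule left out EXPA8, EXPA9 and WSD1 by name, and of these only EXPA9 had met every limit. Over all probe sets 24.8% were called lower and 15.8% higher in rao1-1, 27.3% and 15.6% in rao1-2, and 28.8% and 14.4% in wild type. Of 19 expansins, which loosen cell walls, 4 fell and 2 rose in rao1-1, 5 fell and 3 rose in rao1-2, and 7 fell and 4 rose in wild type. Of 10 xyloglucan endotransglucosylase genes, 2 fell and 2 rose in rao1-1, 1 fell and 4 rose in rao1-2, and 1 fell and 3 rose in wild type. Of 10 genes for cellulose and matrix synthesis, 1 fell and 3 rose in rao1-1, 2 fell and 3 rose in rao1-2, and 3 fell and 3 rose in wild type. In these wall families the calls ran in both directions in every genotype. Each of them also held genes with mock means below the background limit in every genotype, such as EXPA24, XTH26 and IRX15. A fall in such genes could not be measured, so the counts are not compared with the shares over all probe sets. EXPA16, called lower in wild type, was also that dim under mock. Of 4 stomatal genes 2 fell in rao1-1, 2 in rao1-2 and 3 in wild type, and none rose. FMA, a regulator of guard cell fate, fell by 1.12 in rao1-1, 1.6 in rao1-2 and 1.94 in wild type on the log2 scale, and SPCH, which starts the stomatal lineage, was called lower in each genotype with treated means near or below the background limit, so no size is given. Of 4 genes for cuticle and wax 2 fell in each genotype and none rose: AT4G13840, with responses of -1.87, -2.38 and -2.47, and the left-out WSD1, which makes wax esters.

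**Figure D3:**
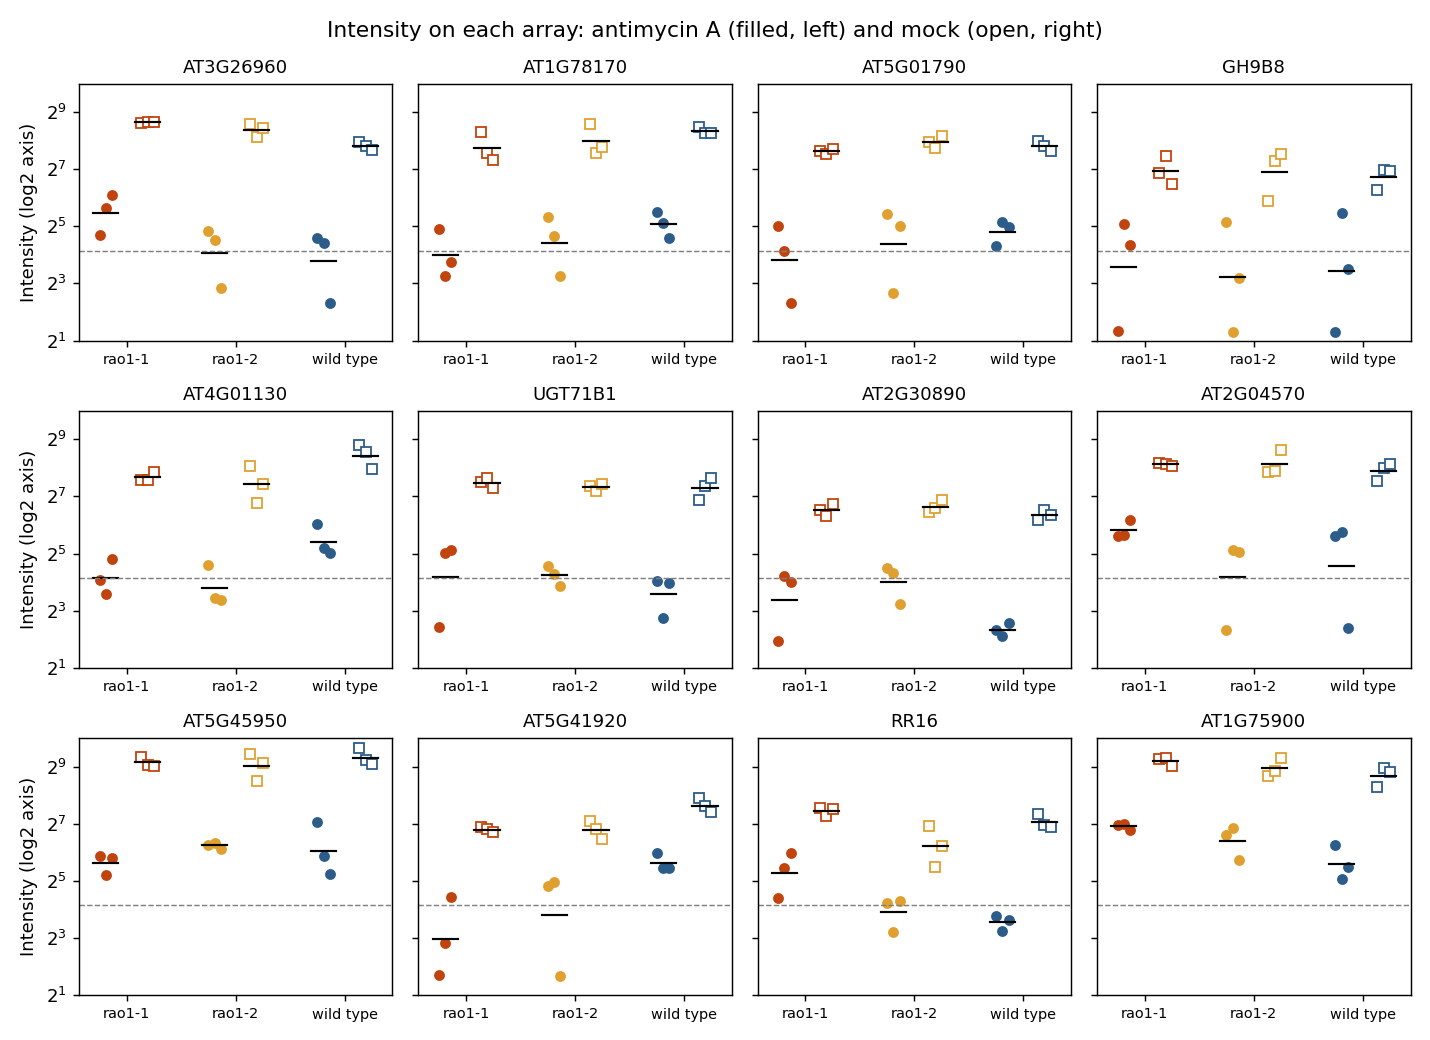
Intensity of 12 named members on each of the 18 arrays, on a log2 axis: the 9 named members with the most negative mean response, then AT5G41920, RR16 and AT1G75900. Filled circles are antimycin A and open squares mock, horizontal bars are means of log2 values, and the dashed line is the background limit of 17.8. GH9B8, AT2G04570 and AT5G41920 have single treated arrays far below the others of their group.

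The limits of the rule fell within a continuous range of values, and the nearest genes below are those among named probe sets only. Just inside the response limit, by the weakest of the 3 responses, were AT5G11420 (-2.01), AT5G41920 (-2.02) and AT3G56370 (-2.03), and just outside were AT5G54630 (-1.995), AT5G39940 (-1.99) and AT5G02540 (-1.98). At the mock limit, the lowest group levels were 64.4 (AT5G03230), 67.9 (AT3G22104) and 72.0 (AT1G16310) inside and 62.6 (AT4G20460), 60.4 (AT5G55580) and 57.5 (AT1G67330) outside. For the mock difference between a mutant and wild type, the largest inside were 1.00 (AT4G01130), 0.94 (AT1G75460) and 0.85 (RR16), and the nearest outside were 1.03 (ATSBT5.2), 1.10 (AT1G78995) and 1.13 (AT3G50270). Over probe sets with or without a name, the mock limit alone kept out 29, and the mock difference alone 11.

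Whether a member responded differently between genotypes was tested as an interaction in limma over all 22746 probe sets. The rule bounds these differences, because every response had to be -2 or lower and the mock levels similar, and the same arrays chose the members. No member was called for the mean of both mutants' responses against the wild-type response, where 0.396% of all probe sets were called, and 4 of 98 had an unadjusted p under 0.05. None was called for rao1-1 against wild type (0.369% of all, 5 members at unadjusted p under 0.05), none for rao1-2 against wild type (0.198% of all, 3 members) and none for rao1-2 against rao1-1 (0% of all, 4 members). The share of all probe sets at an unadjusted p under 0.05 is not given here, so nothing is read from the counts at that threshold. The median difference over members was -0.05, -0.01, -0.07 and -0.01 in that order, and over all probe sets 0.05, 0.06, 0.04 and -0.04. For both mutants against wild type 45 members lay above 0 and 53 below.

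These counts do not show that the genotypes responded alike. The 95% interval of the difference for both mutants had a median half-width of 1.07 on the log2 scale (0.38 to 3.17), and it lay wholly between -1 and 1 for 24 of the 98 members and between -2 and 2 for 78. The range of the 3 responses of a member had a median of 0.55 (0.08 to 1.80), with 42 members under 0.5 and 21 over 1, and for other probe sets within the mock limits its median was 0.31. The most negative response was that of rao1-1 for 34 members, of rao1-2 for 35 and of wild type for 29. The named members with the smallest range were AT1G52770, AT3G12685, AT3G28040, AT1G49650, AT5G11420 and AT5G48730, between 0.16 and 0.25.

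**Figure D4:**
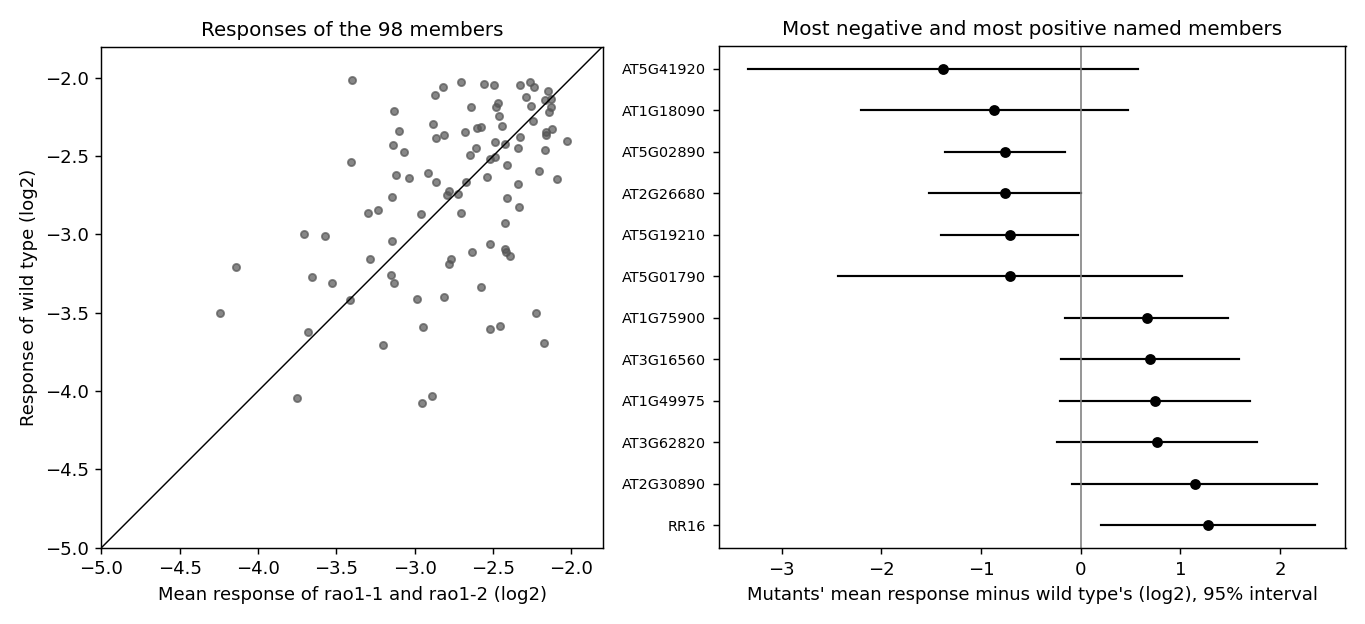
Left, the mean response of rao1-1 and rao1-2 against the response of wild type for the 98 members (log2, with the line of equality). Right, the mutants' mean response minus that of wild type for the 6 most negative and the 6 most positive named members, with 95% intervals from limma over 18 arrays. The 12 estimates run from -1.38 for AT5G41920 to 1.28 for RR16, and no member passed the adjusted threshold.

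The named members at both ends of the difference were chosen for it, and none passed the threshold. AT5G41920 had a difference of -1.38 ± 0.91 (limma adjusted p = 0.610) and AT1G18090 one of -0.87 ± 0.62 (adjusted p = 0.646), both with dim readings on treated rao1-1 arrays. AT5G02890, measured above the background limit on all 18 arrays, had -0.76 ± 0.28 (unadjusted p = 0.0166, adjusted p = 0.298, 95% interval -1.36 to -0.16). Its responses in rao1-1 and rao1-2 both lay below that of wild type. AT2G26680, AT5G19210 and AT5G01790 had differences of -0.76, -0.71 and -0.71. Raising readings below the background limit to that limit gave AT5G19210 a difference of 0.06. The responses in rao1-1, rao1-2 and wild type then were -2.42, -2.44 and -2.28 for AT1G18090. For AT5G01790 they were -3.21, -3.10 and -2.999, and for AT2G26680 -3.06, -2.44 and -2.06. The estimates for AT5G19210, AT1G18090 and AT5G01790 therefore rest mainly on readings below the limit, while the responses of AT2G26680 stayed apart.

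At the other end, RR16 had a difference of 1.28 ± 0.50 (unadjusted p = 0.0231, limma adjusted p = 0.327, 95% interval 0.20 to 2.35), with the wild-type treated level below the background limit. Set to the limit, the difference of RR16 was 0.83. An unnamed member had a larger estimate, 1.52, with 2 of 3 treated wild-type arrays below the limit. AT2G30890 had 1.14 ± 0.57 (adjusted p = 0.474), likewise with dim treated wild-type arrays. With readings below the limit raised to it, the responses of AT2G30890 were -2.36 in rao1-1, -2.32 in rao1-2 and -2.21 in wild type. AT3G62820, AT1G49975, AT3G16560 and AT1G75900 had differences of 0.76, 0.75, 0.69 and 0.66. For single mutants, the receptor-like kinase AT3G56370 differed by -1.15 ± 0.43 in rao1-2 against wild type (limma unadjusted p = 0.0179, adjusted p = 0.395) and AT2G26680 by -1.13 ± 0.41 in rao1-1 against wild type (unadjusted p = 0.0155, adjusted p = 0.303).

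The level that remained under antimycin A was compared between each mutant and wild type. In rao1-1 3 members were called by limma, against 3.27% of all probe sets, with 1 lower (1.49% of all were lower) and 2 higher (1.77% of all were higher), and 17 of the 98 had an unadjusted p under 0.05. In rao1-2 none was called, against 2.46% of all probe sets (1.12% lower and 1.34% higher), and 15 of the 98 had an unadjusted p under 0.05. The median difference over members was -0.02 in rao1-1 and -0.20 in rao1-2, against 0.06 and 0.02 over all probe sets, and 63 of 98 members were below 0 in rao1-2. For all probe sets, the shares at an unadjusted p under 0.05 and below 0 are not given here. Nothing is therefore read from the member counts of those 2 kinds. The median difference of the members between rao1-2 and wild type under mock was -0.17.

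AT1G75900, 1 of the GDSL-type enzymes, was higher in treated rao1-1 (124, 127 and 110) than in treated wild type (76.7, 33.2 and 44.2), by 1.31 ± 0.31 on the log2 scale (limma adjusted p = 0.0352). Its treated rao1-2 values of 96.1, 114 and 52.8 overlapped the wild-type values (0.79 ± 0.31, adjusted p = 0.238). RR16 was higher in treated rao1-1 than in treated wild type by 1.72 ± 0.41 (adjusted p = 0.0350), and its groups did not overlap. Since wild type lay under the background limit, the bound is at least 2.18-fold. The member that was lower, a probe set with no gene name, read 9.49, 12.1 and 10.4 in treated rao1-1 and 24.6, 47.3 and 45.7 in treated wild type (-1.83 ± 0.41, adjusted p = 0.0270), at least 2.12-fold lower. Each of these 3 calls was lost without wild-type antimycin A replicate 2 (adjusted p = 0.134 for AT1G75900, 0.119 for RR16 and 0.0973 for the unnamed member) and without replicate 3 of that group. Raising readings below the background limit to that limit also ended the calls of RR16 (1.12, adjusted p = 0.139) and of the unnamed member (-1.08, adjusted p = 0.149). Centring on the hybridisation controls ended the call of RR16 (adjusted p = 0.0563), and centring on the poly(A) controls that of AT1G75900 (adjusted p = 0.0569).

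AT5G41920 and AT4G01130 had the lowest treated levels relative to wild type among named members in rao1-2, and were low in rao1-1 too, without passing the threshold in either. AT4G01130 differed by -1.27 ± 0.42 in rao1-1 (limma adjusted p = 0.130) and by -1.61 ± 0.42 in rao1-2 (adjusted p = 0.0658). AT5G41920 differed by -2.64 ± 0.74 in rao1-1 (adjusted p = 0.0735) and by -1.82 ± 0.74 in rao1-2 (adjusted p = 0.263), with treated values that did not overlap wild type in either mutant. Both genes also stood lower in both mutants under mock, AT4G01130 by 1.00 on the log2 scale in rao1-2. AT5G41920 had geometric means under mock of 111 in rao1-1 and 110 in rao1-2, against 198 in wild type. The treated differences therefore hold the offset present under mock. Some treated readings of both genes in each mutant were below the background limit.

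The choice of array and scale set how many probe sets met the rule. Leaving out rao1-2 mock replicate 1, the array least like the others of its group, left 73 probe sets, 70 of them members. Leaving out rao1-1 antimycin A replicate 1 left 79, with 78 members, and leaving out rao1-1 antimycin A replicate 3 gave 113, with 97 members. The poly(A) controls, spiked into each sample, were higher on treated than on mock arrays in each genotype. Centring the arrays on them moved the median response of all probe sets by -0.22, -0.31 and -0.25 in rao1-1, rao1-2 and wild type, and 178 probe sets then met the rule, 97 of them members.

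The 44 named members lie on all 5 nuclear chromosomes: 9 on chromosome 1, 7 on chromosome 2, 14 on chromosome 3, 1 on chromosome 4 and 13 on chromosome 5. Those counts are 20.5%, 15.9%, 31.8%, 2.27% and 29.5% of the named members, against 25.8%, 16.5%, 20.5%, 14.7% and 22.5% of all named probe sets tested. The median gene length was 2062 bp in the named members and 2391 bp in named probe sets within the mock limits, by the RefSeq table of TAIR10.1. DRT100 and AT3G12685 are 8 genes apart in its gene order, the closest pair of named members.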

How the data were processed

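Whole green tissue of 14-day-old seedlings was measured on 18 ATH1 arrays, 3 in each of 6 groups taken from the labels. The authors deposited intensities on a linear scale. The names RMA and GCRMA appear in the submitters' processing notes with no version or role, so the method behind these values is unknown. Each method makes arrays alike, so a shift common to most transcripts is removed. The labels number replicates without saying that they were separate cultures, so p-values reflect only how far these samples scatter, and that scatter may be technical.

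The log2 of each intensity was taken with no pseudocount. limma 3.58.1 in R 4.3.3 was fitted over all 18 arrays (12 residual degrees of freedom, eBayes) to 22746 probe sets without the 64 controls, and tested on simulated data. P-values were two-sided and adjusted by the Benjamini-Hochberg method over all probe sets. 13513 probe sets had 1 gene, 503 several and 8730 none, and 13436 of the first matched RefSeq's TAIR10.1 table, used for names, gene length and gene order. Bounds replaced dim values by the background limit. Intensities are single arrays, and responses are differences of mean log2 values.

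The members, the gene lists and the tests were chosen with earlier results of these data known. Genes were named by mean response (12), smallest range between genotypes (6), mock level (6), list membership, nearness to a limit and role (up to 6 a role). As no difference in response was called, the 6 most negative and 6 most positive were named after their values were seen, as were the GH9, UGT71 and SCARECROW-like families. One fixed list, for receptor kinases, had matched other genes through a shared abbreviation, and with that abbreviation removed it held none. Sequences of the members were not used here. The replicate numbers were checked by correlating the deviations of same-numbered treated and mock arrays from their group means over probe sets. Those r were 0.06, 0.24 and -0.09 in rao1-1, 0.17, 0.15 and 0.14 in rao1-2, and 0.31, -0.17 and 0.19 in wild type, so the numbers do not pair the samples in general. Alternatives were other scalings, a floor, a filter on dim probe sets, fewer groups, a replicate block and each array left out.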

Additional observations from a re-analysis of the deposited data

How the results depend on the processing

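The counts of members called for a difference in response stayed at 0 under every alternative, with 1 exception: with only the groups compared in the fit, 1 unnamed member was called in rao1-1 against wild type, with the lower response in rao1-1. For the level under antimycin A, rao1-1 against wild type, the count of 3 became 0 with only the groups compared and ranged from 0 to 5 on leaving out single arrays. It was 0 without wild-type antimycin A replicate 2 or 3, 1 without rao1-1 antimycin A replicate 2 or rao1-1 mock replicate 1, and 5 without rao1-1 antimycin A replicate 1 or 3. For rao1-2 against wild type the count of 0 became 1 with the floor at the background limit (AT5G41920), 1 with the filter on dim probe sets and 1 with a replicate block (AT4G01130 under both), and ranged from 0 to 3 on leaving out single arrays. The replicate block gave 4 members for rao1-1 against wild type and changed no call of a difference in response. The number of members was 178 on poly(A) controls, 330 with a response limit of -1.5 and 33 with one of -2.5. Leaving out single arrays gave 73 to 113. The median response was -2.94 in rao1-2 and -2.87 in wild type on poly(A) controls, and the cause of these moves was not tested. Of the members called lower, 7 in rao1-1, 5 in rao1-2 and 6 in wild type lost that call without some single array, GH9B8 in all 3 genotypes. Dim treated arrays limit what the folds can show: 14 members have only a bound in at least 1 genotype.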
